A study of Mus musculus with 12 samples.

Results

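The cytosolic ribosomal protein genes were taken as every protein-coding gene in the deposited tables whose mouse symbol begins with Rpl or Rps and a number, or is Rplp0, Rplp1, Rplp2 or Rpsa. The rule found 82 genes of 41388, 51 of the large and 31 of the small ribosomal subunit. It used names only and no measured value. Of the 82 genes, 76 encode the standard proteins and 6 are paralogs, which are related genes for similar proteins: Rpl3l, Rpl7l1, Rpl10l, Rpl22l1, Rpl39l and Rps27l. The rule passes over 6 genes of ribosomal proteins with other kinds of names, among them Rack1, Fau and Rps27rt, which are given apart. It also met 2 genes without a coding annotation, Rps4l and Rpl6l, which were not counted as members.

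The libraries came from dorsal root ganglia (DRG), the clusters of sensory neurons beside the spinal cord, of C57BL/6 mice aged 3 months. Every mouse carried the RetFloxedEGFP allele, a heterozygous knock-in at Ret that makes EGFP only after Cre has acted, and the Scn10a<tm2(cre)Jnw> allele, which places Cre under control of the NaV1.8 sodium channel gene of nociceptors. Cells were sorted by EGFP from pooled ganglia of levels L3 to L5 (L345) or L6 and S1 (L6S1), from males or females, with 3 libraries in each of the 4 groups. A library held 12 to 32 ganglia of 2 to 8 mice and is named here by its letter in the labels. No group is wild type, each library is a pool, and the genotype field of the 4 libraries of a later submission (female L345 D, female L6S1 B and C, male L6S1 C) lists 1 of the alleles only.

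Ribosomal proteins assemble with ribosomal RNA into a small subunit, which reads the messenger RNA, and a large subunit, which joins the amino acids. Their genes are usually expressed together in near-equal amounts, and most of their mRNAs begin with a run of pyrimidines, the TOP motif, through which the kinase mTOR and the protein Larp1 control translation. In sensory neurons some of these mRNAs are also carried into the axon. Mammalian genomes hold many processed pseudogenes of these genes, which are copies of the spliced mRNA put back into the genome, so a short read from a ribosomal protein mRNA can match several places.

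The run of pyrimidines at the start was looked up for the 4 genes with the most counts in each subunit. RefSeq promoter windows (build GRCm38.p6) held Rpl4, Rpl13a, Rps3 and Rps9. The following stretches of 30 bases are shown 5′ to 3′ because they hold the longest run of pyrimidines that begins with C near the annotated start, which stands in capitals.
Rpl4: aggagcgtggCCTTCTCCTCTCCCCgtcat
Rpl13a: tgcgacaagaCCTCCTCCTTTCCCaggcgg
Rps9: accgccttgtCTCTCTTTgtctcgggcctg
They lie at chr9:64173403-64173432 on the plus strand, chr7:45128724-45128753 on the minus strand and chr7:3704026-3704055 on the plus strand. The runs are 15, 14 and 8 bases long and begin at positions 26, 2 and -5 relative to the annotated start, so only that of Rpl13a lies right behind it. In the window of Rps3 the longest run beginning with C had 5 bases. A run of at least 8 pyrimidines beginning with C within 50 bases of the start stood in 78.4% of 74 promoter entries of 62 members, against 28.8% of all 32851 entries. CCGGAAG, the core bound by ETS factors, stood on either strand in 35.1% against 8.86%, and TATAAA in 9.46% against 13.6%. These motifs were chosen after the promoters had been read, and a match is a description of the letters only.

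A second set of sequences shows how alike the genes are to a read. The first 60 coding bases (GENCODE M21 transcripts) are given for Rps27, for Rps27rt, and for the paralog Rps27l, in which capitals mark the bases that differ from Rps27.
Rps27: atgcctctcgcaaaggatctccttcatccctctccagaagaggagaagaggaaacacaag
Rps27rt: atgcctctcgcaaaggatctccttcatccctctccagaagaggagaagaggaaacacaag
Rps27l: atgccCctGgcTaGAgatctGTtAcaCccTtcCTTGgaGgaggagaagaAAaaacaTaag
Rps27 (ENSMUSG00000090733) lies on chromosome 3, and Rps27rt and Rps27l lie on chromosome 9. Rps27 and Rps27rt are identical over the stretch, and Rps27l differs at 18 of 60 positions. Over the whole coding sequence of 252 bases Rps27l and Rps27 are 76.2% identical. Summed over the 12 libraries, Rps27 held 206 counts, Rps27rt 448 and Rps27l 14535. Of the 3 genes Rps27l held the most counts and Rps27 the fewest.

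Such sharing was measured for every member as the share of 50-base windows of its coding sequence that also occur in an annotated transcript of another gene. All windows were shared in 29 members, and none in 3, among them the paralogs Rpl3l and Rpl39l. In all, 1337 other genes shared a window with a member, and 1059 of them are processed pseudogenes. Rpl7a shared windows with the most genes (123), followed by Rps16 (89) and Rpl29 (84). No genome sequence was used here, so copies outside the annotation are not counted.

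Levels of the 76 standard members were lower where more of the coding sequence was shared. Levels between genes are compared as deposited RPKM, reads per kilobase of gene length scaled to the library's total. The 19 members with under 80% of coding windows shared had a median of 140 RPKM (37.4 to 406). The 28 members with 80% to under 100% shared had a median of 18.0 RPKM (2.65 to 97.3). The 29 members with every window shared had a median of 2.86 RPKM (0.463 to 98.1), and 25 of them lay under 10 RPKM. Across the 76 genes, which are no replicates of each other, Spearman's rho between RPKM and the share was -0.83. It was -0.62 with the windows of the whole mRNA, -0.79 with coding windows of 100 bases in the 75 genes long enough, and -0.84 with CPM per length of 1 mRNA in place of RPKM. These 3 settings were chosen after seeing the data. The sources used here do not give how the authors counted reads that match several genes, and the part of shared sequence in these levels was not tested. The 699 sharing processed pseudogenes present in the tables took few counts themselves: in each library their sum was 1.53% to 2.16% of the members' sum.

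**Figure D1:**
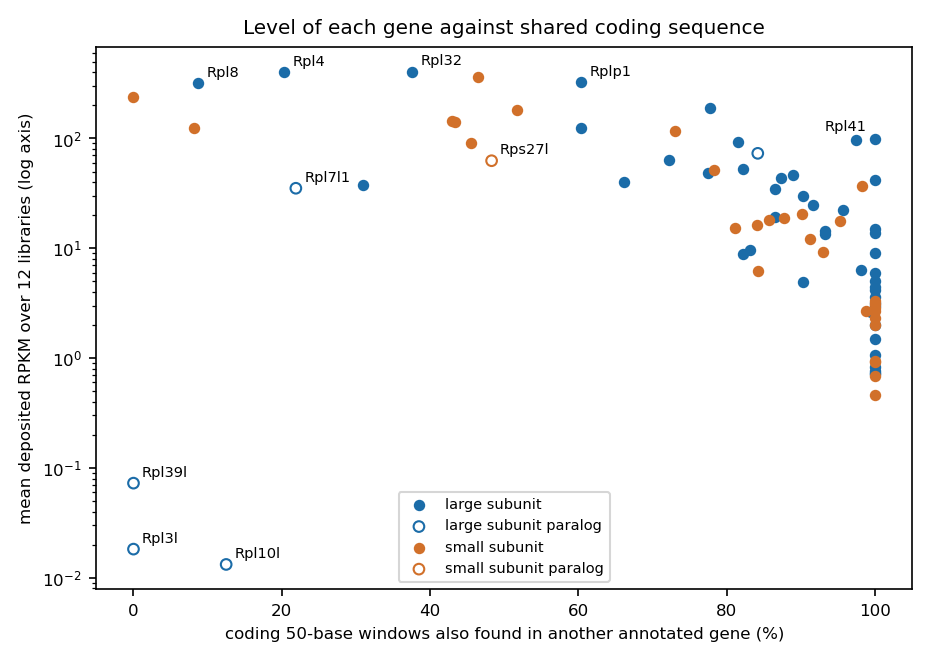
Mean deposited RPKM over 12 libraries (log axis) of each of the 82 genes against the percent of its coding 50-base windows found in another annotated gene; filled points are standard genes, open points paralogs, blue the large and orange the small subunit. The 29 genes at 100% have a median of 2.86 RPKM, and the 19 standard genes under 80% a median of 140 RPKM.

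The highest members per length in the large subunit were Rpl32 with 406 ± 96.8 RPKM (SD, n = 12 libraries), Rpl4 with 402 ± 68.4 and Rplp1 with 325 ± 57.3. Rpl4 lines the tunnel through which the new protein leaves, and Rplp1 belongs to the acidic stalk that recruits elongation factors. Among the 3 highest of the small subunit was Rps14 with 183 ± 41.6 RPKM, which lines the path of the mRNA where it leaves the ribosome. The ranges of mean ± SD of Rpl32, Rpl4 and Rplp1 overlap, and their differences within libraries were not tested. The order depends on the length used: per kilobase of 1 GENCODE mRNA, Rps9 (482 CPM) and Rps14 (425 CPM) lay above Rpl32 (408 CPM) and Rpl4 (372 CPM). Between 9904 and 19633 counts per library came from Rpl4 (chromosome 9, 64173387 to 64178562).

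Among the 3 lowest standard members of each subunit were Rps6 with 0.686 ± 0.257 RPKM, Rpl24 with 0.709 ± 0.301, Rpl12 with 0.725 ± 0.193, Rpl5 with 0.759 ± 0.180 and Rps29 with 0.912 ± 0.388. Rps6 is the classic substrate of the S6 kinase, and Rpl5 forms with Rpl11 and 5S RNA the particle that binds Mdm2. All of these have every coding window in another gene. Neighbours in this order overlap in mean ± SD, and their differences within libraries were not tested. The ratio of the highest to the lowest standard gene was 877. In all, 17 members had under 100 counts in every library, while 26 had over 1000 in every library. The 5 members with the most counts held 37.5% of all member counts, and the 10 highest held 57.4%.

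Of the paralogs, 3 were well counted. Rpl22l1 had 73.2 ± 12.7 RPKM against 37.4 ± 5.07 for Rpl22, but this order comes from the deposited gene lengths of 489 and 2911 bases. Rpl22l1 held 10122 counts and Rpl22 30703, and per kilobase of 1 mRNA (552 and 474 bases) they had 64.9 and 230 CPM. Rps27l had 62.7 ± 13.8 RPKM against 2.86 ± 0.551 for Rps27, and Rpl7l1, an assembly factor of the large subunit, 35.2 ± 7.73 against 48.1 ± 10.1 for Rpl7. Of the coding windows of Rps27, 100% occur in other genes, against 48.3% for Rps27l. For Rpl7 and Rpl7l1 the shares were 77.5% and 21.9%. The part of shared sequence in the levels of these pairs was not tested. The other 3 were near the floor: Rpl39l had 16 counts in all libraries together, Rpl3l, known from striated muscle, 9, and Rpl10l, known from the testis, 4. Rpl39l had 9 of its counts in female L6S1 B. These 3 were too low to be tested. Their coding windows are shared little (0%, 0% and 12.5%), and Rpl10l is 84.7% and Rpl39l 85.0% identical to its parent gene over the coding sequence.

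Summed, the members took a small part of each library. In L345 they held 0.470% at the lowest, 0.496% at the median and 0.607% of all counts at the highest library (mean 0.523% ± 0.0568, SD, n = 6). In L6S1 these values were 0.571%, 0.646% and 0.745% (mean 0.650% ± 0.0736, n = 6). The groups overlap, through male L345 B (0.607%) and female L345 D (0.583%), which lie among the L6S1 libraries, while the other 4 L345 libraries lie between 0.470% and 0.497%. Large subunit genes held 0.300% ± 0.0286 of counts in L345 and 0.371% ± 0.0404 in L6S1, and small subunit genes 0.223% ± 0.0285 and 0.280% ± 0.0340. The ratio of large to small subunit counts was 1.35 ± 0.0400 in L345 and 1.33 ± 0.0407 in L6S1 and ran from 1.29 to 1.39 over the 12 libraries. A share of counts is relative. More RNA of these genes and less of other RNA cannot be told apart here. The sums also weigh the members unevenly. The 29 members with every coding window shared held 6.24% of member counts, and the 19 standard members with under 80% shared held 69.2%. The part of shared sequence in the sums and in the ratio was not tested.

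**Figure D2:**
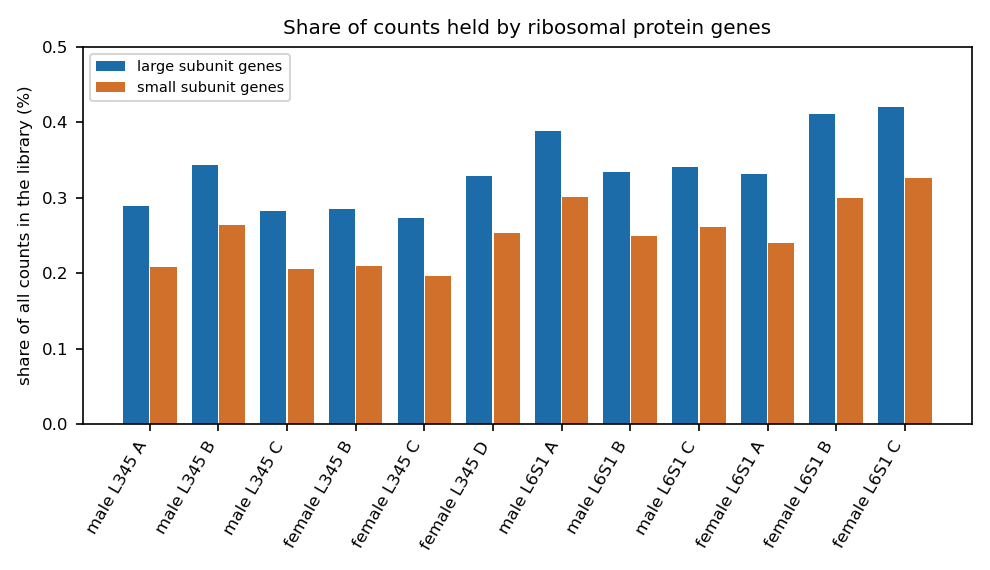
Share of all counts (percent, axis from 0) in large (blue) and small (orange) subunit genes, 1 pair of bars for each of the 12 libraries. The blue bar is the higher in every library, and the ratio of large to small counts lies between 1.29 and 1.39.

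The comparison of levels sets the neurons of L6S1, whose targets include the pelvic organs, against those of L345. No member was called by the edgeR quasi-likelihood F-test (adjusted p under 0.05 over all genes), of 79 tested, while 2.33% of the 15281 genes tested were called. At an unadjusted p under 0.05, 29 members were higher in L6S1 and none lower, beside 13.3% of all genes higher and 13.3% lower. The fitted log2 fold change, L6S1 minus L345, was above 0 in 68 of 79 members. Its median was 0.29 (quartiles 0.13 and 0.40) beside -0.06 over all genes tested. Large subunit members had a median of 0.30 (44 of 48 above 0) and small subunit members 0.25 (24 of 31 above 0). The smallest adjusted p was 0.0559.

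**Figure D3:**
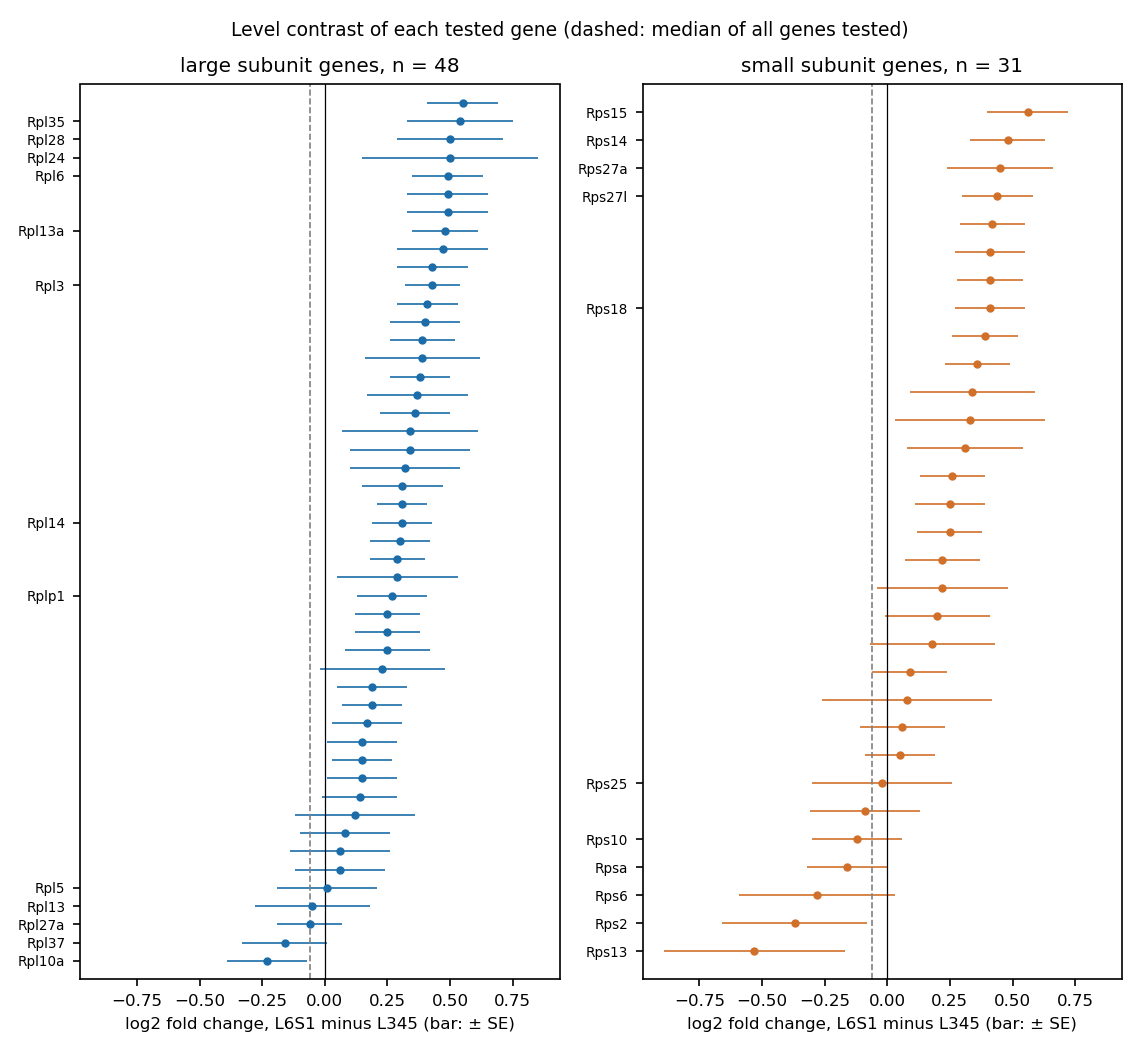
Log2 fold change, L6S1 minus L345, of the 48 large (blue) and 31 small (orange) subunit genes tested, with bars of ± SE and some genes labelled; the solid line is 0 and the dashed line the median of all genes tested, -0.06. Most points lie to the right of both lines, and their range is -0.53 to 0.56.

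In the large subunit, Rpl35, which sits at the exit of the tunnel, was among the highest. Its TMM-scaled CPM (counts per total, after scaling the libraries to each other) was 17.3, 22.7 and 38.4 at the lowest, median and highest L345 library, and 25.3, 34.7 and 50.9 in L6S1. The groups overlap, and 5 of 6 L6S1 libraries lay above the L345 mean of their sex. The log2 fold change was 0.54 ± 0.21 (SE), with an edgeR adjusted p of 0.134, which ranged from 0.0203 to 0.277 when each library was left out in turn. It passed the threshold without female L6S1 A, which gave the low end, and without female L345 D. Further members at this end were Rpl28 with 0.50 ± 0.21, Rpl24 with 0.50 ± 0.35 and Rpl6 with 0.49 ± 0.14. Without female L6S1 B and C, Rpl35 had 0.19, Rpl28 0.19, Rpl24 0.40 and Rpl6 0.29, and with offsets for GC content and length they had 0.40, 0.27, 0.22 and 0.26. Rpl6 had 24.3, 28.3 and 30.4 CPM at the lowest, median and highest L345 library and 29.4, 40.6 and 46.5 in L6S1, with all 6 L6S1 libraries above the L345 mean of their sex.

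Only Rpl3 and Rpl13a among the members had groups that do not overlap, both higher in L6S1, that is 2 of 79 members beside 2.02% of all genes. None was lower without overlap, beside 1.22% of all genes. Both were picked after their values had been seen. Rpl3, which lies close to the site where peptide bonds form, had 61.4, 63.3 and 59.9 CPM in the male L345 libraries A, B and C and 58.5, 58.3 and 55.4 CPM in the female ones B, C and D. In L6S1 it had 94.6, 75.4 and 71.8 in male A, B and C, and 69.6, 85.3 and 82.8 in female A, B and C. Every L6S1 library is above every L345 library, and the L345 libraries lie close together. The log2 fold change was 0.43 ± 0.11, edgeR adjusted p 0.0562 (0.00625 to 0.167 with each library left out, the lowest without female L6S1 A).

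Rpl13a, the more abundant of both genes and a part of the GAIT complex that silences some mRNAs, had 228, 244 and 279 CPM at the lowest, median and highest L345 library. The L6S1 values were 286, 323 and 464 CPM. The change was 0.48 ± 0.13 on the log2 scale with an edgeR adjusted p of 0.0605. With the offsets Rpl3 had 0.30 and Rpl13a 0.24, and without female L6S1 B and C 0.33 and 0.30. The abundant large subunit genes Rpl32 (0.49 ± 0.16), Rpl4 (0.29 ± 0.11) and Rplp1 (0.27 ± 0.14) had overlapping groups and adjusted p of 0.0948, 0.133 and 0.226 in the same test. With the offsets they had 0.22, 0.11 and 0.06.

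In the small subunit Rps15, whose tail reaches the decoding site, stood highest with 56.1, 66.8 and 95.3 CPM at the lowest, median and highest L345 library and 76.3, 107 and 133 CPM in L6S1. The groups overlap through male L345 B and female L345 D on one side and female L6S1 A and male L6S1 B on the other. Its log2 fold change was 0.56 ± 0.16 (edgeR adjusted p 0.0762), 0.66 with the offsets (adjusted p 0.0403) and 0.30 without female L6S1 B and C (adjusted p 0.404). Rps14 had 0.48 ± 0.15, Rps27a, which is made as a fusion with ubiquitin, with 0.45 ± 0.21, and Rps27l with 0.44 ± 0.14. Of these, Rps14 and Rps27l were higher than the L345 mean of their sex in 6 of 6 L6S1 libraries, and Rps27a in 5. Without female L6S1 B and C, Rps14, Rps27a and Rps27l had 0.24, 0.22 and 0.28, and with the offsets 0.30, 0.22 and 0.17.

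At the other end, none of the members with a fold change under 0 passed. In the large subunit these were Rpl10a, of the L1 stalk, with -0.23 ± 0.16, Rpl37 with -0.16 ± 0.17, Rpl27a with -0.06 ± 0.13 and Rpl13 with -0.05 ± 0.23, and Rpl5 stood at 0.01 ± 0.20. In the small subunit Rps13 had -0.53 ± 0.36, Rps2 -0.37 ± 0.29, Rps6 -0.28 ± 0.31, Rpsa -0.16 ± 0.16 and Rps10 -0.12 ± 0.18. Rps13 and Rps6 are low genes, with 8 to 23 and 15 to 43 counts per library, as is Rpl24 with 7 to 33.

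Rps2, which stands at the entry of the mRNA, is a different case. Its counts were 699, 716 and 786 in the male L345 libraries A, B and C and 728, 713 and 997 in the female L345 libraries B, C and D. The male L6S1 libraries A, B and C had 1078, 753 and 999. Female L6S1 A had 550 counts, but female L6S1 B and C had 163 and 226. Scaled to CPM these were 7.08 and 9.46 in B and C and 27.3 to 42.8 in the other 10 libraries. The fold change turned from -0.37 to 0.13 without female L6S1 B and C, and Rps2 was called lower (edgeR adjusted p 0.00116) without female L6S1 A. Both low libraries belong to the later submission, and its other libraries, female L345 D and male L6S1 C, had 37.0 and 37.6 CPM.

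Rps25, which some viral and cellular mRNAs need for internal initiation, varied along other libraries. It had 55.0 CPM in female L345 D and 34.9 in male L6S1 C, both of the later submission, and 15.1 to 29.6 in the other 10. Among those 10 are the other libraries of that submission, female L6S1 B and C, with 23.0 and 25.4 CPM. The log2 fold change of Rps25 between levels was -0.02 ± 0.28. It ran from -0.18 to 0.39 with each library left out, the highest without female L345 D. Rps2 and Rps25 had coefficients of variation of 36.6% and 43.0% over the 12 libraries, against 12.7% for Rpl27a and 12.8% for Rpl23, the steadiest members. The low genes Rps29, Rpl24, Rps13 and Rps6 varied about as much, with 43.8%, 43.2%, 42.5% and 36.6%. Rps2 and Rps25 were described after their values had been seen.

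**Figure D4:**
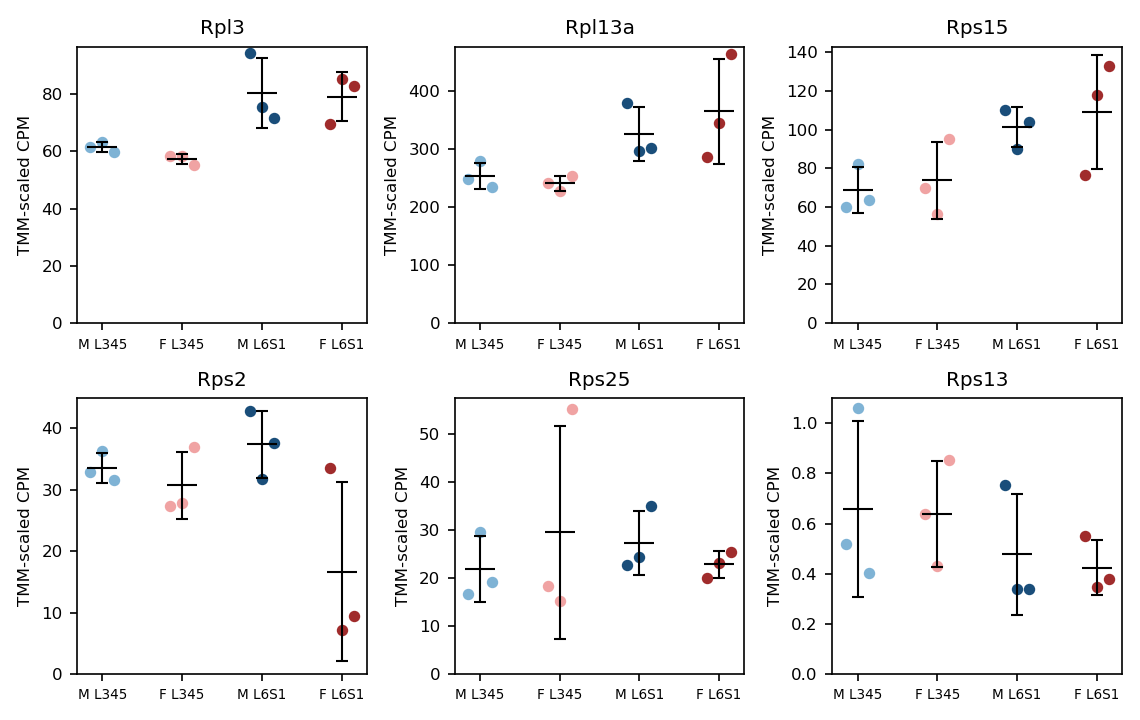
TMM-scaled CPM (axes from 0) of Rpl3, Rpl13a, Rps15, Rps2, Rps25 and Rps13 in each library; points are libraries, black bars the mean ± SD of 3 libraries, M male and F female. Rpl3 separates the levels, Rps2 is low in female L6S1 B and C (7.08 and 9.46 CPM), and Rps25 is high in female L345 D (55.0 CPM).

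The level contrast was also described for the 3 classes of shared coding sequence. The 21 tested members with under 80% shared windows had a median log2 fold change of 0.39, all 21 above 0, and 16 with an unadjusted p under 0.05, beside 26.6% of all genes. The 29 with 80% to under 100% had 0.25 (23 above 0, 10 with such a p). The 29 with every window shared had 0.20 (24 above 0, 3 with such a p), and their median standard error of 0.22 was larger than the 0.13 of the least shared class. With the offsets the medians were 0.20, 0.11 and 0.02 in this order, and without female L6S1 B and C 0.20, 0.15 and 0.13. The difference between the classes was not tested. Adding the counts of 248 pseudogene rows named after a member left the overall median at 0.27.

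The members and short transcripts of all kinds were described in each library. As deviations from the mean of 12 libraries in log2 CPM, the members' median was -0.25, 0.12 and -0.23 in the male L345 libraries A, B and C, and -0.25, -0.29 and 0.14 in the female L345 libraries B, C and D. In L6S1 this median was 0.23, 0.03 and 0.05 in the male libraries A, B and C and -0.04, 0.25 and 0.27 in the female ones A, B and C. The difference between the 20% shortest and the 20% longest of all genes, on the same scale, was -0.30, -0.09 and -0.32 in the male L345 libraries A, B and C and -0.44, -0.44 and 0.17 in the female ones B, C and D. In L6S1 it was 0.33, -0.01 and 0.32 in male A, B and C and -0.04, 0.32 and 0.69 in female A, B and C. Both measures had the same sign in 10 libraries and opposite signs in male L345 B and male L6S1 B. In the level contrast the 3041 shortest genes had a median of 0.23 and the 3040 longest -0.30, and 58 of the 79 members are among the shortest.

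With offsets for GC content and length in each library, the median of the members was 0.11, with 56 of 79 above 0, and that of all genes 0.01. Without female L6S1 B and C it was 0.16 with 67 of 79 above 0. In the first submission alone it was 0.25 with 74 of 79 above 0, and with a term for the submission 0.22. The number of members called depended on the fit as well: 17 with DESeq2 (beside 10.8% of all genes), 34 with limma-voom and quality weights (21.4%), 27 without female L6S1 A (25.7%, 26 of the members higher in L6S1), 4 without female L345 D (5.63%) and 0 without each of the other 10 libraries. Without female L6S1 A, the female L6S1 libraries are B and C, both of the later submission, while of female L345 only D is. The part of the submission in the calls of that fit was not tested.

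**Figure D5:**
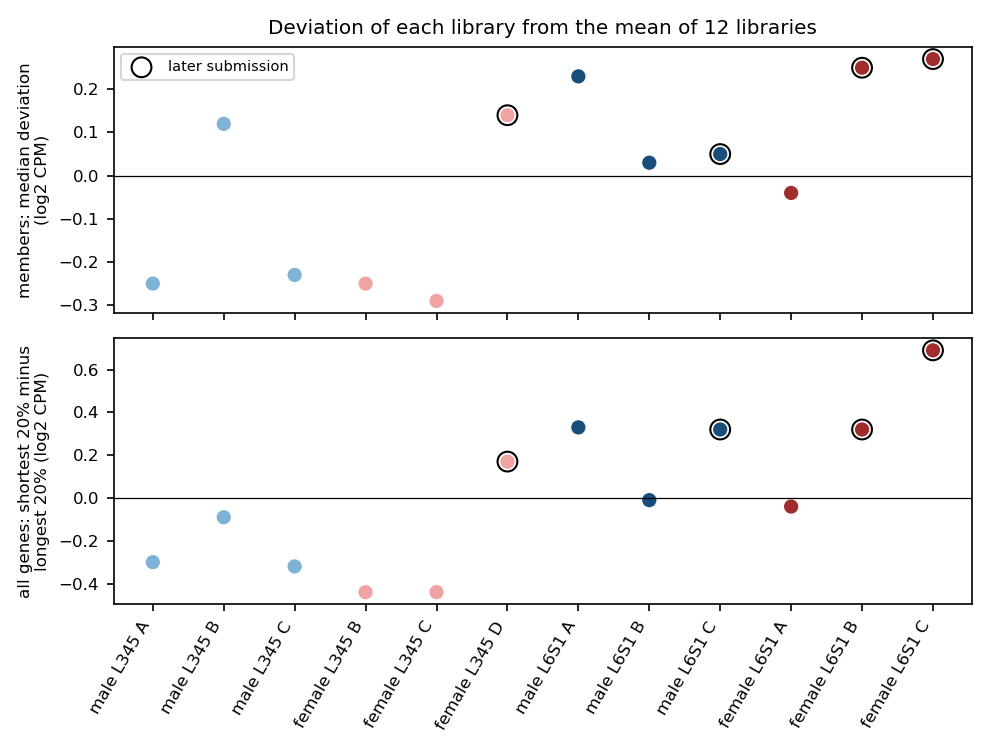
Median deviation of the 79 tested members (top) and the difference between the 20% shortest and 20% longest of all genes (bottom) in each library, both in log2 CPM from the mean of 12 libraries; colours mark the 4 groups and circles the later submission. Female L6S1 C is highest in both panels (0.27 and 0.69), and male L345 B is above 0 in the top panel (0.12) and below 0 in the bottom one (-0.09).

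Within each sex the level contrast called no member (edgeR adjusted p), beside 0.222% of all genes in males and 0.36% in females. At an unadjusted p under 0.05, 6 members were higher in males, beside 4.27% of all genes higher and 4.56% lower, and 27 in females, beside 11.6% and 12.4%. No member was lower in either sex. The medians were 0.26 in males (64 of 79 above 0) and 0.33 in females (62 of 79). The interaction, which is the female level effect less the male one, called no member and 0% of all genes, and its median over the members was 0.14. An unadjusted p under 0.05 was reached by 3 members and 4.67% of all genes, and DESeq2 called no member. Without female L6S1 A, Rps2 was called, beside 5.21% of all genes. One of the 3 was Rpl14, with 0.62 ± 0.24 (unadjusted p 0.0204, edgeR adjusted p 0.871), whose level effect was -0.01 ± 0.17 in males and 0.62 ± 0.17 in females. Rps18 with 0.60 ± 0.28 was another, and both were named after their values had been seen.

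Between the sexes no member was called (edgeR adjusted p), beside 0.0589% of all genes. The median, female minus male, was 0.04 with 51 of 79 above 0, beside 0.00 over all genes, and it changed sign with the libraries used: -0.04 with a submission term, -0.16 in the first submission alone and -0.06 when female L6S1 B and C were left out. Among the highest members were Rps29 with 0.49 ± 0.34, Rpl24 with 0.43 ± 0.35 and Rpl19 with 0.31 ± 0.24. At the low end were Rps2 with -0.65 ± 0.30, Rpl10a with -0.29 ± 0.16, Rps6 with -0.24 ± 0.31, Rps10 with -0.18 ± 0.18 and Rpl27 with -0.18 ± 0.25. An unadjusted p under 0.05 was reached by 2 members, among them Rps2 (0.0450), beside 5.96% of all genes, and both were called without female L6S1 A, beside 6.32%.

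The ribosomal proteins that the symbol rule passes over gave like values. Rack1, a scaffold protein on the small subunit, had 219 ± 13.5 CPM in L345 and 313 ± 64.7 in L6S1 (SD, n = 6 each), a log2 fold change of 0.51 ± 0.14 with an edgeR adjusted p of 0.0596. All 6 of these genes were above 0, with a median of 0.37, and none was called. The row of Rps4l, annotated as a transcribed pseudogene, held 18455 counts, beside 9563 for Rps4x, with which it shares no 50-base window. Of the coding windows of Rps4x, however, 90.1% occur in other genes, and no such share is given here for Rps4l. The part of shared sequence in these counts was not tested.

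Genes that serve the ribosome but are no part of it were taken from lists, and no gene of them was called for level or for sex by edgeR. The 75 tested mitochondrial ribosomal proteins had a median level effect of 0.29 (62 above 0), equal to that of the cytosolic ones, from Mrps34 at -0.70 ± 0.59 to Mrps18b at 0.63 ± 0.18. Translation factors and other TOP mRNAs had a median of 0.16 (13 of 19 above 0), from Pabpc1, the poly(A)-binding protein, at -0.48 ± 0.14 to Eif3k, an initiation factor subunit, at 0.64 ± 0.16 (edgeR adjusted p 0.0517). Assembly factors had 0.08 (24 of 38), from Mdn1 at -0.52 ± 0.24 to Nop56, of the box C/D snoRNPs, at 0.61 ± 0.16.

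Genes of RNA polymerase I, which makes ribosomal RNA, had a median of -0.01 (7 of 15 above 0), from Polr1a at -0.36 ± 0.17 to Znrd1 at 0.47 ± 0.14. Hosts of small nucleolar RNAs had 0.19 (6 of 6), from Snhg6 at 0.09 ± 0.16 to Zfas1 at 0.41 ± 0.15. Regulators of the translation of ribosomal protein mRNAs, among them genes of the mTOR pathway, had -0.25 (2 of 15). They ran from Akt1s1 at -0.77 ± 0.39 to Mlst8 at 0.26 ± 0.13. Their sum was 713 and 630 CPM in female L6S1 B and C, against 1040 or more elsewhere. Rps6kb2, a kinase of Rps6, was listed at 0 counts in every library. With the offsets the regulators of translation had a median of 0.01, the snoRNA hosts -0.03 and the mitochondrial ribosomal proteins 0.23. Translation factors had 0.14, assembly factors 0.11 and RNA polymerase I genes 0.02. Without female L6S1 B and C the medians were -0.13, 0.18, 0.15, 0.12, 0.09 and 0.02 in the same order.

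The lowest total count was 16176436, in female L6S1 A, and the highest was 26694404, in female L345 D. The neuron markers, such as Tubb3, were detected in every library, with a sum of 14800 to 24700 CPM over 8 genes. Markers of Schwann cells summed to 2420 to 3930 CPM and those of satellite glia to 913 to 1890 CPM, with no called gene of 8 and 9. Fibroblast markers summed to 69.0 to 93.1 CPM in L345 and 126 to 331 in L6S1, where Dcn was called higher (1.67 ± 0.14, edgeR adjusted p 1.91e-05). Immune markers summed to 3.71 to 4.78 CPM in L345 and 7.18 to 194 in L6S1, the most in female L6S1 C, and C1qb (2.21 ± 0.38, adjusted p 0.00982) and Cd74 (2.86 ± 0.65, adjusted p 0.0381) were called higher. These cells' part in the members' values was not tested. Endothelial markers (1.05 to 14.5 CPM), red blood cell markers (0.754 to 4.15) and markers of large myelinated neurons (201 to 845) had no called gene. In female L6S1 B and C the markers of large myelinated neurons summed to 218 and 201 CPM, against 468 or more elsewhere. Those of satellite glia summed to 913 and 936, against 1320 or more. Schwann cell markers summed to 3930 and 3830, against 3040 or less. A sum weighs the most abundant markers most. The median level effect of the 8 Schwann cell markers was -0.42, with 2 of 8 above 0.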

How the data were processed

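RNA of EGFP-sorted DRG cells was sequenced in 12 libraries, 3 in each group of sex and level. The authors deposited 1 table of counts, CPM and RPKM for 41388 genes per library. Per the submitters' processing notes, the tools were Subread and featureCounts 1.4.5, with genome build GRCm38.p2. The sources used here do not give read length, strand or the handling of reads that match several genes. Tests used the deposited counts, which are whole. Deposited CPM was found to be the count scaled to its table's total, and deposited RPKM the same divided by gene length. RPKM was used for levels between genes only. GENCODE M21 gave symbols for 40340 genes (97.5%).

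Whole tables were fitted with edgeR 4.0.16 (R 4.3.3): TMM scaling, filterByExpr by group (15281 genes and 79 members kept), a robust quasi-likelihood fit of 1 mean per group (8 residual degrees of freedom, common biological coefficient of variation 0.239), and Benjamini-Hochberg adjustment over all genes tested. Level effects are L6S1 minus L345 with the sexes weighted equally. Alternatives were RLE, upper-quartile, total-count and member-free TMM scaling, DESeq2 1.42.0, limma-voom (limma 3.58.1), other filters, a submission term, the first submission alone, a replicate block, GC and length offsets, a glial covariate, each library left out, and pseudogene counts added. The fit was also run on simulated counts, whose changes were larger than those of the members. That run does not show whether changes of the members' size would be called. Labels do not say that pools came from different mice, so p-values measure the spread between these libraries. A count of 0 allows up to 3 counts, 0.112 to 0.185 CPM, for counting error only. Within groups no libraries were identical (chi-square per degree of freedom 9.76 to 128). The labels of male L345 C disagree on the number of mice (5 or 3).

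The members and gene lists were chosen with earlier results of these data known. Named are the 5 highest and 5 lowest fold changes per subunit for level, and over both for sex, the 3 highest and lowest RPKM per subunit, paralogs, untested members, and in other lists every called gene or the highest and lowest; other named members were chosen after their values were seen. Some members that this rule picks are not reported here.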

Additional observations from a re-analysis of the deposited data

Results flagged for a closer look

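In 58 checks of the summed share, the ratio of subunits and the named members for 1 library far from the other 5 of its level, 6 stood apart, where chance gives about 5%. Among the L345 libraries, male L345 B was far above the others for Rpl27a (55.4 CPM, others 37.5 to 44.2) and Rps10 (24.6, others 15.2 to 18.7). Female L345 D was far above the others for Rpl28 (19.3 CPM, others 9.89 to 13.2) and Rpl7l1 (90.2, others 74.6 to 79.8). Among the L6S1 libraries, male L6S1 C was far above the others for Rpl13 (11.5 CPM, others 7.12 to 8.12), and female L6S1 B for Rpl4 (853 CPM, others 542 to 658).

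For 3 of the named members all 3 L6S1 libraries of one sex lay on one side of the L345 mean of that sex and all 3 of the other sex on the opposite side. For Rps29 females were higher and males lower in L6S1, with an interaction of 0.96 on the log2 scale. For Rpl13 and Rpl5 males were higher and females lower, with -0.65 and -0.78. None of these interactions passed the edgeR test at an adjusted p under 0.05. The female direction of Rpl13 rests on female L345 D with 15.5 CPM, as female L345 B and C had 6.81 and 6.8. Female L6S1 A, B and C had 7.19, 8.12 and 7.12 CPM of Rpl13, below D but above B and C of L345.

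Outside the members, the rows of Rps4l and Rpl6l, which match the symbol rule but have no coding annotation, held 18455 and 11 counts over the 12 libraries.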

How the results depend on the processing

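The level contrast called 0 members with edgeR, beside 2.33% of all genes. It called 2 with RLE scaling (2.58% of all genes), 3 with upper-quartile scaling (3.57%), 17 with DESeq2 (10.8%), 34 with limma-voom (21.4%), 5 with no filter (3.15%), 1 with GC and length offsets (5.24%), 1 with the glial covariate (1.22%) and 0 to 27 with each library left out (27 with female L6S1 A left out, 25.7%, and 4 with female L345 D left out, 5.63%). Within males limma-voom called 22 (12.2%) and within females DESeq2 called 6 (5.57%), and leaving out a library gave 0 to 27 in females (24.5% without female L6S1 A). The sex contrast called 0 to 2 and the interaction 0 to 1 with each library left out. Whether replicate letters pair the libraries was not tested. Of 15 same-letter pairs 7 had a correlation over 0.1 (range -0.2 to 0.31). A smaller share of the pairs with different letters did, and these ran from -0.33 to 0.34. With the replicate block 14 members were called for level, beside 13% of all genes, and the large minus small difference was 0.03 in place of 0.06. That difference was 0.01 in the first submission alone and 0.01 to 0.08 with each library left out. The median level effect ran from 0.11 to 0.38 over all 27 alternatives, and the share of counts from 0.587% to 0.609%.

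Of the 18 members named for level, sign changes were these, none called. Upper-quartile scaling gave Rpl13 0.02 and Rpl27a 0.01, limma-voom Rpl13 0.22, Rpl27a 0.00 and Rpl37 0.03, and the replicate block Rpl13 0.27 and Rpl37 0.00. The first submission alone gave Rpl13 0.06, Rpl27a 0.02, Rpl37 0.04, Rpl5 -0.04, Rps10 0.18, Rps2 0.21 and Rps6 0.19. Without female L6S1 B and C, Rpl5 was -0.04, Rps10 0.12, Rps2 0.13 and Rps6 0.07. Rpl5 was -0.02 with total counts, -0.02 with the submission term, -0.05 with the offsets and -0.15 with the glial covariate, and Rpsa was 0.08 with pseudogene counts added. With each library left out Rpl13 ran from -0.15 to 0.20, Rpl27a from -0.12 to 0.02 and Rpl5 from -0.08 to 0.17. The cause of these changes was not tested. Depth limits the 7 members with under 10 counts in a library.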
